A study of Homo sapiens with 12 samples.

Results

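The 32 genes described here make cholesterol and fatty acids, or control that synthesis and the transport of its products. They comprised 6 genes of the mevalonate and isoprenoid steps, 11 of the steps from farnesyl diphosphate to cholesterol, 3 SREBP genes or regulators, 8 genes of fatty acid synthesis and desaturation, and 4 genes of sterol transport or LXR response. They were taken by symbol from a table of 62656 genes, each symbol matched 1 row, and all 32 passed the filter on low values that kept 17604 genes. RNA came from a conditionally immortalized human podocyte line with a temperature-sensitive SV40 large-T antigen, which divides at 33 °C; it was differentiated at 37 °C over 12 days before treatment. There were 4 groups of 3 libraries. The control line carried pCW-eGFP and the other line pCW-(FLAG-NLS-)YAP5SA, both tetracycline-inducible (Tet-On) constructs. YAP5SA is YAP, a co-activator of TEAD transcription factors, changed so that Hippo kinases no longer hold it in check; FLAG and NLS are an epitope tag and a nuclear import signal. Doxycycline, which switches the construct on, was either withheld or given at 0.1 µg/ml over 24 hours. All groups shared the large-T antigen and a medium with serum and insulin-transferrin-selenium. The labels do not say whether either stable line is 1 clone, so a difference between the lines cannot be told apart from a difference between 2 separately made lines. They number replicates 1 to 3 without saying that these were separate cultures, so the spread that the p-values rest on may be technical.

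Cholesterol is built from acetyl-CoA through mevalonate, farnesyl diphosphate, squalene and lanosterol, and fatty acids are built from the same acetyl-CoA by ACLY, ACACA and FASN, then elongated and desaturated. The genes of both routes are switched on by the SREBP transcription factors, SREBP-2 (from SREBF2) chiefly for cholesterol and SREBP-1 (from SREBF1) chiefly for fatty acids. When the endoplasmic reticulum holds enough sterol, INSIG1 keeps the SREBPs there with their escort SCAP, and INSIG1 is itself an SREBP target. LXR, a nuclear receptor for oxysterols, works the other way: it raises the exporters ABCA1 and ABCG1, the ubiquitin ligase MYLIP and SREBF1. In podocytes, ABCA1 is known as the exporter that limits the build-up of cholesterol.

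SREBPs act on promoters together with NF-Y, which binds CCAAT, and Sp1, which binds GC boxes. RefSeq promoter windows (GRCh38.p14, from 250 bases before to 50 after a start) were held for 28 of the 32 members, as 38 windows, and both strands were searched. CCAAT was found in 26 of the 38 windows (68.4%), against 34.6% of all 34943 windows, and the GC box GGGCGG in 34 (89.5%), against 44.9%. A sterol regulatory element written TCACNCCAC lay in 1 member window, that of SREBF2, against 1.12% of all. The TEAD motif GGAATG, to which the partners of YAP bind, lay in 5 windows (13.2%, against 14% of all), and its longer form GGAATGT, which contains it, in none of the 38 (3.47% of all). The LXR element known as DR4, searched only as an exact repeat, was found in no member window and in 0.02% of all. Imperfect forms of DR4 were not searched for, so their presence in these windows was not tested. Counted by gene, 22 of the 28 members with a window held a CCAAT box. Among the genes higher in the uninduced YAP5SA line it was all 7 with a window, and among those lower after induction 5 of 8. Counted by window, it was 7 of 8 and 6 of 11. All of these are matches of letters, not sites shown to be bound. Sequence outside the windows was not searched, so the presence of any of these motifs further from a start was not tested. The stretches below are upstream of the RefSeq start and read 5′ to 3′ on the gene's strand, with the CCAAT box (ATTGG when it lies on the other strand) and the sterol regulatory element in capitals. MVD, STARD4 and SCD stand for the genes higher in the uninduced YAP5SA line, INSIG1, ACLY and again SCD for those lower after induction, and SREBF2 carries the sterol regulatory element.
MVD, chr16:88663132-88663216, minus strand: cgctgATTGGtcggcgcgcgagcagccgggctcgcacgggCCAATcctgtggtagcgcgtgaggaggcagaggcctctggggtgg
STARD4, chr5:111512621-111512705, minus strand: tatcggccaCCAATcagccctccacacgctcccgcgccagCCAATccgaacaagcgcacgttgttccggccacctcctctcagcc
SCD, chr10:100347007-100347091, plus strand: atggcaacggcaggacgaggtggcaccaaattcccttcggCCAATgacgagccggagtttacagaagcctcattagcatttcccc
INSIG1, chr7:155297668-155297752, plus strand: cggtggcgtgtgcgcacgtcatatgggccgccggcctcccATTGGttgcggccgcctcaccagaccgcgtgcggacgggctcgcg
ACLY, chr17:41919023-41919085, minus strand: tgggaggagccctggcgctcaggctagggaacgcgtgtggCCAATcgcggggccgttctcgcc
SREBF2, chr22:41832932-41833020, plus strand: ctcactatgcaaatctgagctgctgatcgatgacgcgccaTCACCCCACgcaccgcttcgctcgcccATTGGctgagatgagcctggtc
In GENCODE 29 the stretches of SCD and INSIG1 lie outside any gene, that of ACLY in an intron of a longer ACLY transcript, that of STARD4 in an intron of the antisense gene STARD4-AS1, that of SREBF2 in an exon of the antisense gene SREBF2-AS1, and 30 bases of that of MVD in a first exon of MVD.

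The deposited values are whole numbers but not raw counts. In all 13900 genes with at least 20 in every library, 2 times the sum of the 4 values of replicate 1 equalled the sum of the other 8 values to within 5, whereas with replicate 2 in its place only 3.5% of genes met a tolerance of 8. This is what remains when a difference between replicate 1 and replicates 2 and 3 is subtracted gene by gene from normalised counts and the result is rounded. A level below is this deposited value. The read depth behind it is unknown, since the totals of 24477592 to 25993413 per library are totals of adjusted values. YAP1, whose reads can come from the endogenous gene and the construct, had values of 4385 to 8389 in the GFP line without doxycycline, 4484 to 8211 with it, and 5586 to 9457 in the uninduced YAP5SA line. After induction it stood at 44429, 42382 and 24580, a log2 fold change of 2.22 ± 0.317 (SE, adjusted p = 0.0032, limma), while the uninduced lines overlapped (0.21 ± 0.317, adjusted p = 0.78). By replicate number, the uninduced YAP5SA line read 5586, 9457 and 8736 against 4385, 8389 and 8127 in the GFP line. Each value was thus above its same-numbered GFP library, though these numbers were not taken as pairs. Whether the construct was expressed without doxycycline was not tested. Of the podocyte markers, NPHS1 and WT1 did not exceed 5 and 12, while SYNPO, CD2AP and PODXL were present. Markers often used for parietal epithelial cells (PAX8, CLDN1, KRT8, KRT19, CD44 and PAX2) were all detected. No endothelial marker passed the filter, 2 of 6 tubule and 2 of 4 leukocyte markers passed it at summed list levels of no more than 88 and 65, and UMOD and AQP2 were listed at 0.

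Without doxycycline, 8 of the 32 genes stood higher in YAP5SA than in GFP cells and 0 lower (adjusted p below 0.05, limma on log2(value + 1)), 7 of them in the cholesterol routes or sterol transport. Among all genes tested, 5.84% were called in this comparison and 4.37% were higher, against 25% of the members. The median log2 difference of the members was 0.15, against -0.01 for all genes, and 25 of the 32 were positive. After induction of YAP5SA, 8 members fell and 1 rose. The fallers were 5 of the 8 fatty acid genes, INSIG1, SREBF1 and ABCA1, and the gene that rose was the sterol oxidase MSMO1. Of all genes, 15.6% were called on induction, 7.94% higher and 7.61% lower, against 28.1% of the members. The median log2 change was -0.05 for the members and 0.00 for all genes. The 2 comparisons share the uninduced YAP5SA libraries, and their values are set side by side here. Cell type markers also differed between the uninduced lines: PDGFRB of mesangial cells and fibroblasts was higher in the YAP5SA line by 1.11 (adjusted p = 0.00113), the podocyte marker TCF21 by 0.87 (adjusted p = 0.00731) and the parietal marker KRT8 by 0.46 (adjusted p = 0.00201), and the parietal marker PAX8 was lower (-0.37, adjusted p = 0.0241). Summed over the list, the 4 mesangial and fibroblast markers stood at 2322 to 3205 in the GFP line and 3151 to 4266 in the uninduced YAP5SA line, the 6 parietal markers at 96400 to 99029 and 96942 to 100661, and the 9 podocyte markers at 17899 to 19633 and 19805 to 20754. The part of these differences in those of the members was not tested. In these bulk samples, fewer cells with a transcript and less of it per cell cannot be told apart.

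**Figure D1:**
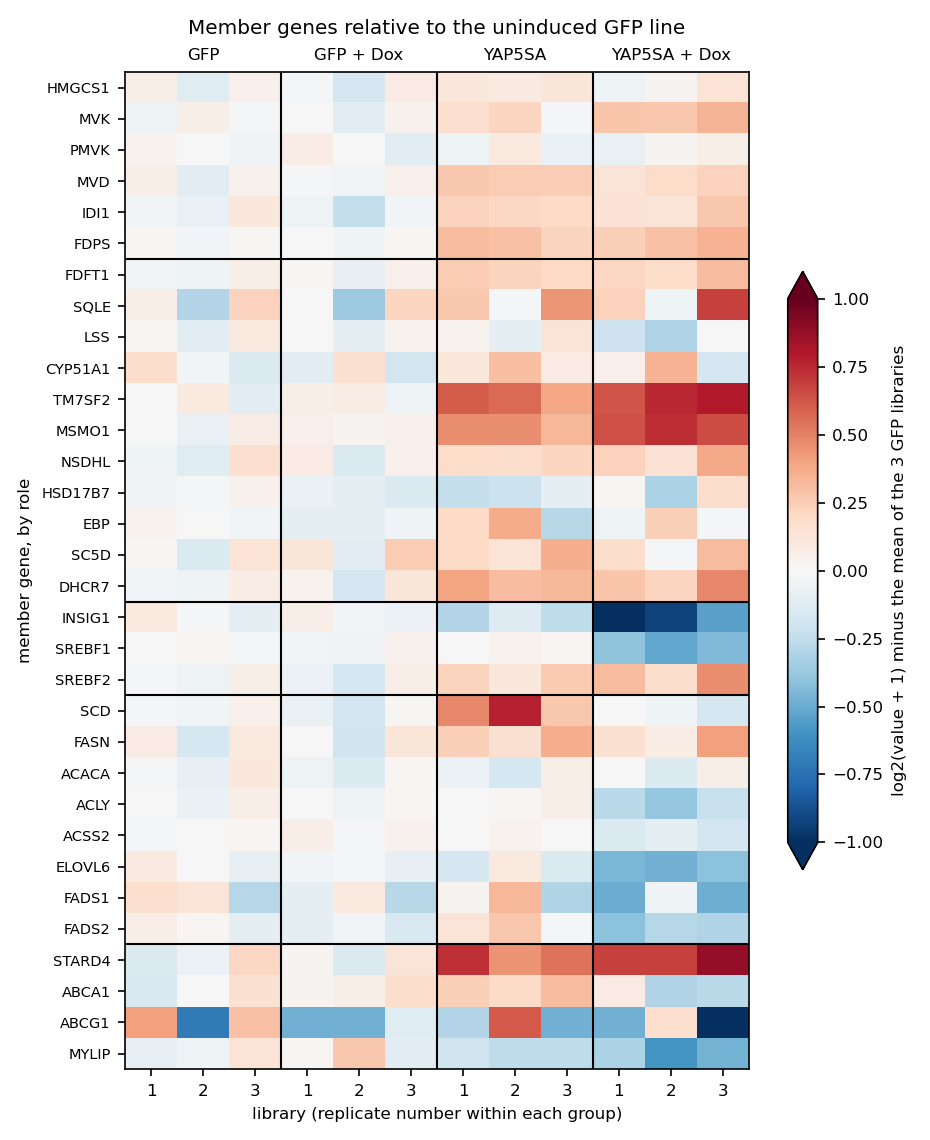
Each row is a member gene, ordered by role, and each column a library; colour is log2(value + 1) minus the mean of the 3 uninduced GFP libraries, and colours saturate beyond 1 log2 unit in either direction. The GFP libraries with and without doxycycline are close to 0 for most genes, MSMO1, TM7SF2 and STARD4 are above 0 in all 6 YAP5SA libraries, and INSIG1, SREBF1 and ACLY are lowest in the 3 induced YAP5SA libraries; ABCG1, at values of 3 to 14, varies most between replicates.

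Libraries that did not overlap were counted as well. The 3 uninduced YAP5SA libraries lay entirely above the 3 GFP libraries for 14 members and entirely below for 3, where 15.6% of all genes lay above and 12.8% below. On induction, 3 members lay entirely above and 10 entirely below, where 17.8% of all genes lay above and 15.6% below. With doxycycline in the GFP line, 0 members lay entirely above (2.65% of all genes) and 2 entirely below (2.94% of all genes). These 2 were HSD17B7, at 132 to 139 without doxycycline and 122 to 129 with it, and EBP, at 347 to 364 and 332 to 344. The limma test called 0 of the 32 members and 0% of all genes there. At an unadjusted p below 0.05 it was 0 members and 204 of all genes (1.16%) by the same limma fit. That share is below what the threshold itself allows where no gene changes, so the fit was conservative for this comparison. It did not use the pairing seen between same-numbered GFP libraries. With a replicate block in the 6 GFP libraries alone, 0 members and 17 of all genes were called. Apart from ABCG1, the largest log2 differences of members were -0.10 for IDI1 (95% interval -0.25 to 0.05) and HSD17B7 (-0.38 to 0.18).

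The support behind these calls was uneven. Of the induction calls, those of INSIG1, SREBF1, ACLY, ELOVL6, FADS2, SCD and MSMO1 held with each of the 12 libraries left out in turn. ABCA1 was lost without YAP5SA replicate 1 or 3 or induced replicate 2 or 3, and ACSS2 without any YAP5SA replicate or induced replicate 1 or 3. The 8 calls between the uninduced lines fell to 3 without GFP replicate 1, 3 without GFP replicate 2, 2 without YAP5SA replicate 1, and 5 without YAP5SA replicate 2 or 3. Of these, MSMO1 and TM7SF2 were called in all 12 and FDPS in all but the fit without YAP5SA replicate 1. SCD and STARD4 were lost without GFP replicate 1 or 2 or YAP5SA replicate 1, MVD and DHCR7 also without YAP5SA replicate 2 or 3, and FDFT1 without any of these or GFP replicate 1 with doxycycline. With replicates 2 and 3 alone (8 libraries), which carry no contrast with replicate 1, 0 members and 94 of all genes were called between the uninduced lines, and 6 members, all lower, on induction.

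**Figure D2:**
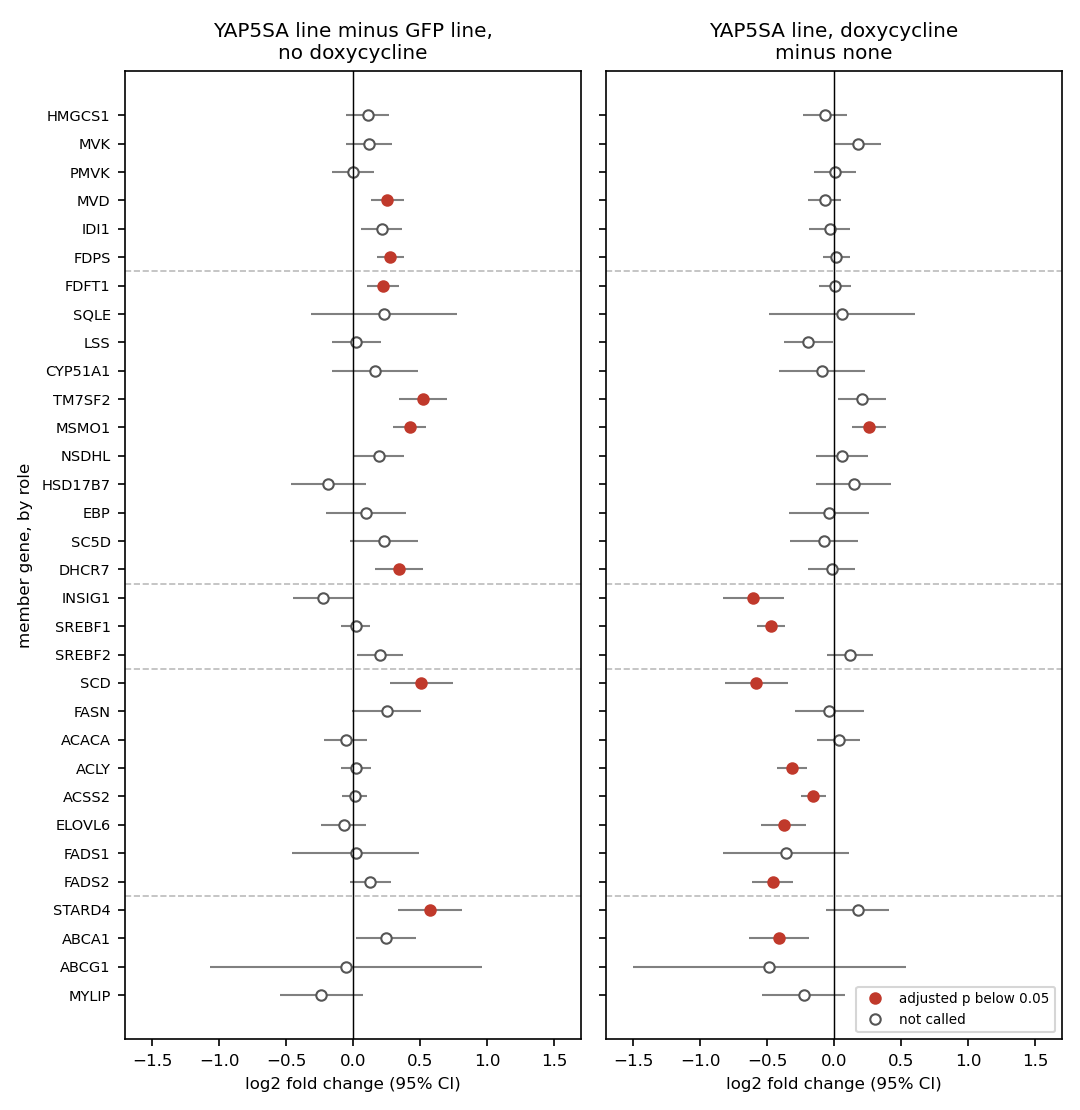
Points are log2 fold changes of the 32 members, lines their 95% confidence intervals, filled points those with an adjusted p below 0.05; left, the YAP5SA line minus the GFP line without doxycycline, and right, induced minus uninduced YAP5SA line. Filled points lie to the right of 0 in the left panel, mostly among sterol genes, and to the left of 0 in the right panel, mostly among fatty acid genes, with MSMO1 filled and positive in both.

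In the mevalonate and isoprenoid group, 2 of 6 genes were higher in the uninduced YAP5SA line and 0 of 6 changed on induction. FDPS (ENSG00000160752, chr1:155308748-155320666) makes farnesyl diphosphate, where the routes to sterols and to prenylated proteins divide. It stood at 1788, 1733 and 1778 in the GFP line, 1758, 1712 and 1795 in the GFP line with doxycycline, 2197, 2167 and 2057 in the uninduced YAP5SA line and 2081, 2164 and 2242 after induction. All 6 YAP5SA libraries were above all 6 GFP libraries. The log2 difference between the uninduced lines was 0.28 ± 0.0467 (SE, adjusted p = 0.00542), and the change on induction was 0.01, with a 95% interval of -0.09 to 0.12. MVD (ENSG00000167508, chr16:88651935-88663161), which decarboxylates mevalonate diphosphate to isopentenyl diphosphate, had values of 942, 840 and 934 in the GFP line and 897, 888 and 937 with doxycycline. It stood at 1089, 1077 and 1071 in the uninduced YAP5SA line and at 991, 1029 and 1063 after induction. The uninduced YAP5SA libraries were the highest 3 of the 12, at a log2 difference of 0.25 ± 0.0573 (adjusted p = 0.023) from the GFP line. The other members of this group were not called in either comparison. IDI1, which interconverts the isoprene units, came nearest between the lines, at 0.21 (adjusted p = 0.10). HMGCS1, which makes the HMG-CoA that enters the pathway, differed by 0.11, the kinase MVK by 0.12 and the kinase PMVK by 0.00, with adjusted p-values of 0.466, 0.441 and 0.986.

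Between farnesyl diphosphate and cholesterol, 4 of 11 genes were higher in the uninduced YAP5SA line, and on induction 1 rose and 0 fell. MSMO1 (ENSG00000052802, chr4:165327623-165343160), the oxidase that begins the removal of the methyl groups at carbon 4 of the sterol ring, was called in both. Its values were 909, 870 and 964 in the GFP line, 945, 933 and 944 with doxycycline, 1263, 1261 and 1149 in the uninduced YAP5SA line, and 1426, 1527 and 1438 after induction. The 3 levels did not overlap, GFP line, uninduced and induced YAP5SA line being in that order. The log2 difference was 0.42 ± 0.0579 between the uninduced lines (adjusted p = 0.00165) and 0.26 ± 0.0579 on induction (adjusted p = 0.01). TM7SF2 (chr11:65111845-65116384), a sterol reductase of the endoplasmic reticulum, read 374, 400 and 347 in the GFP line and 388, 393 and 360 with doxycycline. In the uninduced YAP5SA line it read 568, 554 and 488, and after induction 578, 631 and 647. It was 1.43-fold as high in the uninduced YAP5SA line (log2 0.52 ± 0.0831, adjusted p = 0.00394), and the induced libraries lay above the uninduced ones without passing the test (0.21 ± 0.0831, adjusted p = 0.121).

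DHCR7 (chr11:71428193-71452868) catalyses the last reduction to cholesterol in the Kandutsch-Russell route. Its values were 1187, 1178 and 1275 in the GFP line, 1243, 1077 and 1319 with doxycycline, 1592, 1505 and 1524 in the uninduced YAP5SA line and 1469, 1411 and 1692 after induction. The lines without doxycycline did not overlap (log2 0.34 ± 0.082, adjusted p = 0.0299), and the induced libraries lay on both sides of the uninduced ones (-0.02 ± 0.082, adjusted p = 0.915). FDFT1, which joins 2 farnesyl diphosphates into squalene and so commits carbon to sterols, stood at 1706, 1685 and 1823 in the GFP line and 1764, 1637 and 1798 with doxycycline. It stood at 2075, 2029 and 1989 in the uninduced YAP5SA line and 2001, 1968 and 2163 after induction. All YAP5SA libraries exceeded all GFP libraries, at 0.23 ± 0.0553 between the uninduced lines (adjusted p = 0.0339), and the change on induction was 0.01 with a 95% interval of -0.11 to 0.13.

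The other 7 genes of the squalene-to-cholesterol group passed neither test. Between the uninduced lines, LSS, which closes the ring of lanosterol, differed by 0.02, the demethylase CYP51A1 by 0.16, the decarboxylating dehydrogenase NSDHL by 0.19, the isomerase EBP by 0.10 and the desaturase SC5D by 0.23. HSD17B7, the 3-ketosteroid reductase of the same demethylation, was the exception in sign, at -0.19. CYP51A1 shares 2844 exon bases, 79.35% of its own, with the gene AC000120.2 on the same strand, which had a total value of 0. How reads in such shared bases were counted is not stated, so the level of CYP51A1 may be understated. Squalene epoxidase SQLE, a rate-limiting step, varied more by replicate number than by group. Its values were 2104, 1649 and 2364 in the GFP line, 2022, 1571 and 2335 with doxycycline, 2432, 1989 and 2743 in the uninduced YAP5SA line, and 2364, 1954 and 3239 after induction. Replicate 2 was the lowest and replicate 3 the highest in every group, and the 95% interval of the line difference ran from -0.32 to 0.78. This order of replicates held in all 4 groups for 6 of the 32 members (SQLE, LSS, SC5D, SREBF2, FASN and ACACA), against 5.93% of all genes tested. What the replicate numbers stand for is not given in the sources used here.

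Of the 3 SREBP genes and regulators, INSIG1 and SREBF1 fell on induction and SREBF2 did not. INSIG1 (ENSG00000186480, chr7:155297776-155310235) holds the SCAP and SREBP complex in the endoplasmic reticulum. Its values were 856, 796 and 754 in the GFP line, 832, 787 and 768 with doxycycline, 655, 734 and 673 in the uninduced YAP5SA line, and 398, 420 and 550 after induction. The induced libraries were the lowest 3 of the 12. It fell to 0.658-fold on induction (log2 -0.60 ± 0.105, adjusted p = 0.00231). The uninduced YAP5SA libraries were also below the GFP libraries, though not past the threshold (-0.22 ± 0.105, adjusted p = 0.263).

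SREBF1 (ENSG00000072310, chr17:17810399-17837002) encodes SREBP-1 and had the smallest p of the members on induction. It read 1193, 1213 and 1185 in the GFP line, 1176, 1170 and 1234 with doxycycline, 1203, 1224 and 1210 in the uninduced YAP5SA line, and 906, 836 and 883 after induction. The first 3 groups lay within 1170 to 1234 and the induced libraries well below them. The fall was 0.722-fold (log2 -0.47 ± 0.049, adjusted p = 7.9e-05), and the lines without doxycycline differed by 0.02 ± 0.049 (adjusted p = 0.882). SREBF2, which encodes SREBP-2, stood at 3449 to 3732 in the GFP line, 3853 to 4284 in the uninduced YAP5SA line and 4036 to 4931 after induction. Its differences were 0.20 between the uninduced lines (adjusted p = 0.177) and 0.12 on induction (adjusted p = 0.357). SREBF1 shares 556 exon bases, 6.92% of its own, with RAI1 on the opposite strand, and without a stated strand setting the reads of 2 such genes cannot be told apart.

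Among the 8 fatty acid genes, 5 fell on induction and 0 rose, and 1 was higher in the uninduced YAP5SA line. ACLY (ENSG00000131473, chr17:41866908-41930542) cleaves citrate to the cytosolic acetyl-CoA used by both routes, and per kilobase of annotated exon its mean value in the GFP line, 3073, was the highest of the 32 members (FASN followed at 579). Its values were 16027, 15308 and 16755 in the GFP line, 16056, 15440 and 16239 with doxycycline, 15936, 16176 and 16693 in the uninduced YAP5SA line, and 13273, 12244 and 13731 after induction. The induced libraries were the lowest 3 of the 12, and the other 9 lay between 15308 and 16755. It fell by 0.32 ± 0.0506 on the log2 scale (adjusted p = 0.00136), and the uninduced lines differed by 0.02. SCD (ENSG00000099194, chr10:100347124-100364834), which puts the first double bond into saturated fatty acids, moved in both comparisons and in opposite directions. Its values were 1586, 1584 and 1666 in the GFP line, 1535, 1413 and 1629 with doxycycline, 2248, 2748 and 1945 in the uninduced YAP5SA line, and 1617, 1561 and 1425 after induction. Only the uninduced YAP5SA libraries stood apart, above the other 9. SCD was 1.42-fold as high there as in the GFP line (log2 0.51 ± 0.107, adjusted p = 0.0201) and fell by 0.58 ± 0.107 on induction (adjusted p = 0.00429). The 2 lines with doxycycline differed by 0.01 (adjusted p = 0.961).

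FADS2 (ENSG00000134824, chr11:61792980-61867354), the first desaturase of polyunsaturated fatty acid synthesis, read 3813, 3689 and 3413 in the GFP line and 3405, 3575 and 3274 with doxycycline. It read 3978, 4371 and 3596 in the uninduced YAP5SA line and 2732, 2990 and 2947 after induction. The induced libraries were the lowest of the 12, at a log2 change of -0.46 ± 0.071 (adjusted p = 0.00107). ELOVL6 (chr4:110045846-110199199), which elongates palmitate, had values of 722, 677 and 642 in the GFP line, 665, 670 and 642 with doxycycline, 604, 728 and 615 in the uninduced YAP5SA line, and 495, 486 and 512 after induction. It fell by 0.38 ± 0.0769 (adjusted p = 0.00582). ACSS2, which makes acetyl-CoA from acetate, fell by a smaller 0.16 ± 0.0428 (adjusted p = 0.0273), from 2285 to 2343 down to 2001 to 2136. The desaturase FADS1, which shares 490 exon bases with FADS2 on the opposite strand, had a log2 change of -0.36, but its replicates spread from 2001 to 3104 before induction and the 95% interval was -0.83 to 0.11 (adjusted p = 0.30). The 2 enzymes that build the chain itself passed no test. FASN, fatty acid synthase, changed by -0.04 on induction (95% interval -0.29 to 0.22) and ACACA, acetyl-CoA carboxylase, by 0.03 (-0.13 to 0.20). FASN libraries of the uninduced YAP5SA line (6008 to 6962) lay above those of the GFP line (4772 to 5774) at a difference of 0.25 (adjusted p = 0.258).

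**Figure D3:**
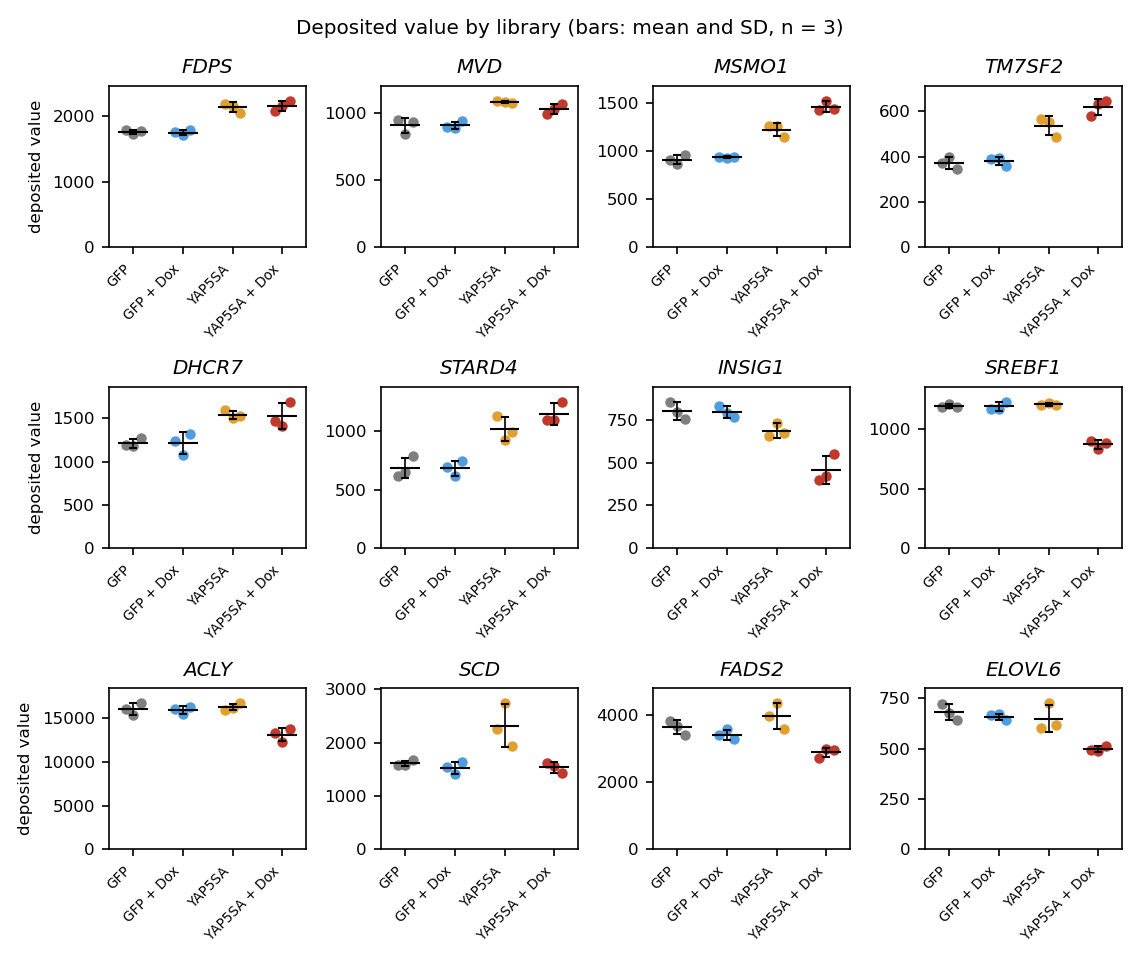
Deposited values of 12 members in each of the 12 libraries on linear axes from 0; points are libraries in the order of replicates 1 to 3, lines the group mean and bars the SD. In the upper row and for DHCR7 and STARD4 both YAP5SA groups stand above both GFP groups, while for INSIG1, SREBF1, ACLY, FADS2 and ELOVL6 the induced YAP5SA libraries stand below the rest and for SCD only the uninduced YAP5SA libraries stand above.

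Of the 4 genes of sterol transport and LXR response, STARD4 differed between the uninduced lines and ABCA1 fell on induction. STARD4 (chr5:111496033-111512590) carries cholesterol between membranes in the cytosol and is an SREBP-2 target. It had values of 616, 655 and 785 in the GFP line, 693, 615 and 744 with doxycycline, 1133, 929 and 993 in the uninduced YAP5SA line, and 1093, 1098 and 1253 after induction. Every YAP5SA library was above every GFP library. Its log2 difference between the uninduced lines, 0.57 ± 0.108 (1.49-fold, adjusted p = 0.0106), was the largest of the 32 members, and the change on induction was 0.17 ± 0.108 (adjusted p = 0.323). ABCA1 (chr9:104781002-104928237) read 1396, 1552 and 1730 in the GFP line, 1581, 1619 and 1753 with doxycycline, 1833, 1777 and 1922 in the uninduced YAP5SA line, and 1640, 1258 and 1291 after induction. The induced libraries lay below the uninduced ones (-0.41 ± 0.103, adjusted p = 0.02) and partly within the range of the GFP line. MYLIP, at 55 to 101, was called in neither comparison (-0.24 between the uninduced lines and -0.23 on induction). ABCG1 had values of only 3 to 14, and its 95% interval on induction ran from -1.50 to 0.53. Of the 6 parietal epithelial markers, KRT19 and CD44 were called lower on induction, and the sum over the list was 96942 to 100661 in the uninduced YAP5SA libraries and 87560 to 89799 in the induced ones. That of the 9 podocyte markers was 19805 to 20754 and then 20802 to 21883, and that of the 4 mesangial and fibroblast markers 3151 to 4266 and then 3397 to 4078, with PDGFRB (log2 0.90) and TCF21 (log2 0.67) called higher on induction. The part of these shifts in the changes of the members was not tested.

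The interaction asked whether doxycycline acted differently in the 2 lines. It was called for 3 members, all lower in the YAP5SA line, against 4.74% of all genes called and 2.06% called lower. These were SREBF1 (log2 -0.47 ± 0.0693, adjusted p = 0.00341), ACLY (-0.31 ± 0.0715, adjusted p = 0.0312) and INSIG1 (-0.59 ± 0.149, adjusted p = 0.042). The SREBF1 call held with each library left out, that of ACLY ended in 9 of 12 such fits (all but those without GFP replicate 3, GFP replicate 2 with doxycycline or induced YAP5SA replicate 3) and that of INSIG1 in 11 (all but that without induced YAP5SA replicate 3). With replicates 2 and 3 alone all 3 ended. FADS2 (-0.37, adjusted p = 0.0586), ABCA1 (-0.50, adjusted p = 0.0843), SCD (-0.50, adjusted p = 0.0971), ACSS2 (-0.19, adjusted p = 0.103) and ELOVL6 (-0.33, adjusted p = 0.116) were negative without passing. MSMO1, the member that rose on induction, was not called in the interaction either, where 0 of the 11 squalene-to-cholesterol genes were. For these 5 and for MSMO1 the effect of doxycycline is not shown to differ between the lines.

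The difference between the lines without doxycycline was also tested against the change on induction, as 1 contrast. The uninduced YAP5SA libraries enter this contrast through both of its terms. SCD (log2 1.09 ± 0.185, adjusted p = 0.041) and SREBF1 (0.49 ± 0.0848, adjusted p = 0.0342) were called, both with the line difference above the change on induction, where 0.222% of all genes were called in that direction. SCD lost its call in 11 of the 12 fits with a library left out (all but that without YAP5SA replicate 3) and SREBF1 in 10 (all but those without replicate 3 of either line with doxycycline). No gene of the mevalonate or squalene-to-cholesterol groups was called, so the larger line differences of FDPS (0.28 against 0.01) and DHCR7 (0.34 against -0.02) are not shown to exceed their changes on induction (adjusted p = 0.226 and 0.344).

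Comparing the 2 lines with doxycycline adds the line difference to the response. In it, 11 members were higher in the YAP5SA line and 7 lower, against 17.9% and 16.0% of all genes. In the mevalonate and squalene-to-cholesterol groups 9 of 17 genes were higher and 0 lower: TM7SF2 by 0.70, MSMO1 by 0.64, DHCR7 by 0.33, MVK by 0.32, FDPS by 0.30, IDI1 by 0.28, NSDHL by 0.25, FDFT1 by 0.24 and MVD by 0.18 on the log2 scale. SREBF2 (0.37, adjusted p = 0.0032) and STARD4 (0.75, adjusted p = 0.000265) were the other 2. The 7 lower genes were INSIG1 (-0.82), MYLIP (-0.53), SREBF1 (-0.45), ELOVL6 (-0.40), ACLY (-0.28), FADS2 (-0.24) and ACSS2 (-0.18). Leaving out single libraries ended the calls of NSDHL in 7 of 12 fits, MVD in 4 and FADS2 in 3, and that of MYLIP without replicate 2 of either line with doxycycline. With total-sum scaling, the split of all genes moved from 3152 higher and 2812 lower to 2329 and 3655, and that of the uninduced lines from 769 and 259 to 572 and 376. The members then split 9 to 8 with doxycycline and 7 to 0 without it.

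Values of related genes were also set against each other within a library. SREBF2 per SREBF1, as a ratio of values, was 2.84 to 3.15 in the GFP line, 2.70 to 3.03 with doxycycline, 3.15 to 3.54 in the uninduced YAP5SA line and 4.83 to 5.58 after induction. SCD5, outside the 32 and the second stearoyl-CoA desaturase gene, rose on induction by 0.37 ± 0.0832 (adjusted p = 0.0112) while SCD fell. SCD5 per SCD was 1.41 to 1.66 in the GFP line, 1.07 to 1.62 in the uninduced YAP5SA line and 2.42 to 2.85 after induction. FADS3, the neighbour of FADS2 in the desaturase cluster, rose by 0.24 ± 0.0449 (adjusted p = 0.00383), and FADS3 per FADS2 went from 1.45 to 1.73 before induction to 2.53 to 2.78 after it. These 3 ratios were chosen after the values were seen and have no test, and the adjustment of the deposited values enters both of their terms.

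**Figure D4:**
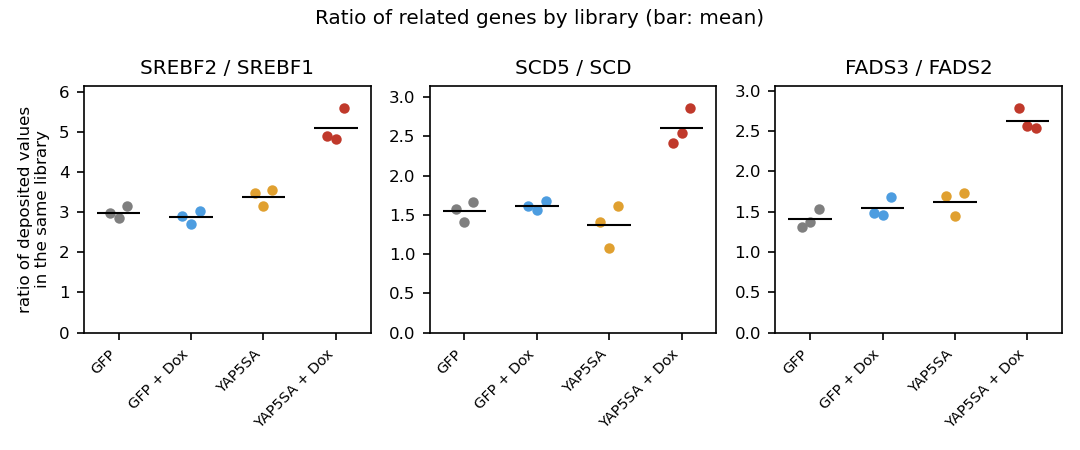
Ratios of deposited values of 2 related genes in the same library, SREBF2 to SREBF1, SCD5 to SCD and FADS3 to FADS2, on axes from 0; points are the 3 libraries of a group and lines their mean. In each panel the 3 induced YAP5SA libraries lie above the other 9.

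A further 38 genes of the same pathways, of which 37 passed the filter, were read alongside. On induction 6 of them rose and 1 fell (18.9% of those tested, near the 15.6% of all genes), and in the uninduced YAP5SA line 5 were higher and 0 lower (13.5%, against 5.84% of all genes). The largest rise on induction by p was that of ACSL3, an acyl-CoA synthetase of lipid droplets, from 3698, 3799 and 3718 to 4875, 4895 and 4943 (0.39 ± 0.0438, adjusted p = 0.000131). It was also higher in the uninduced YAP5SA line than in the GFP line by 0.39 (adjusted p = 0.000539) and carried an interaction of 0.41 (adjusted p = 0.00368). MBTPS2, the protease that releases the active SREBP fragment, rose by 0.26 (adjusted p = 0.00959), and SOAT1, which esterifies cholesterol for storage, by 0.15 (adjusted p = 0.0311). MID1IP1, an activator of acetyl-CoA carboxylase, fell by 0.34 (adjusted p = 0.00389). FADS3 (0.33), ELOVL7 (0.52) and HSD17B12 (0.28) were also among those higher in the uninduced YAP5SA line. ELOVL7 and HSD17B12 act in fatty acid elongation.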

How the data were processed

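Poly(A) RNA-seq libraries (1000 ng of total RNA, per the labels' protocols) of 12 samples gave 1 table of values per gene. The submitters' processing notes name DRAGEN, featureCounts, Subread, limma and DESeq2 with GRCh38 (hg38), without versions, roles or a strand setting. The deposited values are treated as a score: whole numbers, already on 1 scale (median-of-ratios factors 1.002 to 1.008), from which, judging by the values, the authors' processing had removed a difference between replicate 1 and replicates 2 and 3. A count model had been planned and was not used for this reason. Instead, log2(value + 1) of the 17604 genes with at least 10 in at least 3 libraries was fitted with limma 3.58.1 (R 4.3.3; trend and robust variances) on the 4 groups and a term for replicate 1 against the others (7 residual degrees of freedom), with Benjamini-Hochberg adjustment over all genes and a threshold of 0.05. A fold change is on the log2(value + 1) scale; it understates changes of low genes, and the subtracted shift enters every level. Symbols were found for 62639 of 62656 identifiers; positions and exon lengths are from GENCODE 29, promoters from RefSeq GRCh38.p14. Of all genes, 24935 were at 0 in every library.

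The members and lists were chosen with earlier results of these data known. All 32 members are named; values per library are given for those called on induction, between the uninduced lines or in the interaction, at most 4 per role by smallest p, and SQLE was added after its values were seen. Of the other pathway genes, up to 6 with the smallest p among those called in each of 2 comparisons are named. Libraries of the 2 GFP groups with the same number deviated together (correlations of 0.26, 0.405 and 0.392 for numbers 1, 2 and 3), which was taken as a pairing, from the data and not from the labels; with the replicate block in the 6 GFP libraries alone, 0 members and 17 of all genes were called for doxycycline. Alternatives were other scalings, filters, pseudocount and weights, the replicate block, groups compared alone and each library left out; those on the replicate 1 term, replicates 2 and 3 alone, the pseudocount and total-sum scaling were added after seeing the data. Some genes of the lists are not reported here.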

Additional observations from a re-analysis of the deposited data

Results flagged for a closer look

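The interaction of doxycycline and line passed the limma test for 3 of the 32 genes, all lower in the YAP5SA line: INSIG1 at -0.59, SREBF1 at -0.47 and ACLY at -0.31 on the log2 scale. Of all genes, 4.74% were called. With single libraries left out, the call of INSIG1 ended in 11 of 12 fits, that of ACLY in 9 and that of SREBF1 in 0, and all 3 ended with replicates 2 and 3 alone. The interaction was also called for MBTPS2 (0.32, adjusted p = 0.048, limma) and ACSL3 (0.41) of the other pathway genes and for YAP1 (2.23), the gene in the construct.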

How the results depend on the processing

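No call of a member changed sign under the alternatives run. RLE, upper-quartile and total-sum scaling, limma-voom, the stricter filter and pseudocount 10 left every count of calls within 1.5 times. Without the low-value filter, doxycycline in the GFP line called 1 of all genes, and the line difference minus induction 118; without the replicate 1 term the latter was 166. The groups compared alone called 1744 of all genes on induction, and 649 with 5 members between the uninduced lines. With the replicate block over 12 libraries, calls rose to 4856 of all genes on induction (13 members), 2916 between the uninduced lines (14 members), 2386 in the interaction (8 members), 862 for the line difference minus induction (9 members) and 1 for doxycycline in the GFP line (17 in the GFP libraries alone, as a pairing). Outside the GFP groups the numbers were not taken as pairs: same-numbered libraries correlated at -0.271 to 0.322, negative for number 1, whose deviations the adjustment ties across groups, and not every library correlated best with its own number. With replicates 2 and 3 alone, calls dropped to 870 of all genes on induction, 94 and 0 members between the uninduced lines, 18 and 0 in the interaction, 3066 and 9 between the lines with doxycycline, and 1 and 0 for the line difference minus induction. Leaving out 1 library gave 7 to 9 members and 1654 to 2685 genes on induction, 2 to 9 and 226 to 1156 between the uninduced lines, 1 to 3 and 340 to 957 in the interaction, 14 to 18 and 4315 to 5956 with doxycycline, 0 to 1 and 1 to 103 for the line difference minus induction, and 0 of either for doxycycline in the GFP line. These fits have fewer libraries; the cause of the other shifts was not tested. The count models and TMM scaling from the plan were not run, as the values are not counts. The unknown read depth and the unknown shift in each level limit what low genes such as ABCG1 can show.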

Other observations

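TMEM97 and NPC2, both of cholesterol handling in the endosomal system, lie outside the 32 genes and were chosen after their values were seen. They were higher in the YAP5SA line than in the control line, both with doxycycline, by 0.42 (adjusted p = 0.00476, limma) and 0.36 (adjusted p = 0.0141) on the log2 scale. In that comparison 17.9% of all genes were called higher. Of the 37 other pathway genes tested, 15 were called higher and 4 lower. The mean value of NPC1, also among those 37, was the lower in the YAP5SA line (3556 against 3996), with libraries that overlapped.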
